A study of Mus musculus with 2 samples.

Results

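The genes described here belong to a family of membrane proteins that cross the membrane several times, the Ms4a genes and the related Tmem176 pair. They were taken from the deposited Cuffdiff table of RNA sequencing as the rows whose gene name equals Ms4a1, Ms4a2, Ms4a3, Ms4a4c, Ms4a6b, Ms4a6c, Ms4a7, Tmem176a or Tmem176b, which gave 9 of 23235 rows. The genes were chosen with their values in this comparison known, so their own levels and calls are given as a description and no test is made on them. Both groups were cultures of C57B6 bone marrow depleted of lineage-positive cells. They carried 2 retroviruses made with MIGR1, one with HA-tagged Hoxa9 fused to ER, a hormone-binding receptor part, and one with Flag-tagged Meis1. The cells were transformed in IL3 and 100 nM 4OHT (4-hydroxytamoxifen, which keeps the fusion in the nucleus), washed 3 times, and grown for 72 h in 100 nM 4OHT or in its solvent ethanol (EtOH). The EtOH group is therefore the one that lost nuclear Hoxa9, and both groups express Meis1 from a virus.

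Each group has 1 FPKM value per gene (fragments scaled to transcript length and to the mapped fragments of the library), made by the authors from 2 replicates, so no value below has a replicate error. The read depth is unknown, because FPKM does not give read totals. The sum over the table was 544802 FPKM for 4OHT and 591496 FPKM for EtOH. The log2 change of a gene is its log2(FPKM + 1) in EtOH minus that in 4OHT, so higher levels in EtOH give positive values, and changes of weakly expressed genes are understated. Values in parentheses after a pair of levels are log2 changes. A gene is said to have risen or fallen, or to be called, where the authors' deposited table has a q-value no higher than 0.05. Of its 11865 tested genes 22.5% were called, 12.0% for a rise and 10.5% for a fall in EtOH. Over the 11022 genes with 1 FPKM or more in either group these shares were 22.6%, 12.0% and 10.6%. The RNA had the leukocyte antigen gene Ptprc at 33.9 and 64.5 FPKM, in 4OHT and EtOH, the progenitor receptor gene Kit at 7.39 and 10.1 FPKM, and the progenitor antigen gene Cd34 at 124 and 45.8 FPKM. Withdrawal acts on where the fusion protein lies, so the RNA of Hoxa9, at 476 and 892 FPKM, and of Meis1, at 242 and 418 FPKM, does not check the labels.

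Ms4a1 encodes CD20, the B cell antigen, and Ms4a2 the beta chain of the high-affinity IgE receptor of mast cells and basophils, which carries a signalling motif and amplifies the signal of the gamma chains. Ms4a3, also called HTm4, is expressed in granulocyte-monocyte progenitors and is used to mark their descendants in mice. Tmem176a and Tmem176b encode proteins of intracellular membranes that are abundant in dendritic cells, and Tmem176b is known as a cation channel that restrains the NLRP3 inflammasome.

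Promoter sequence is shown for Ms4a2, the member with the largest rise, since it held several matches to a word of GATA factors, and as short stretches for its abundant neighbour Ms4a3 and for the space between the starts of the Tmem176 pair. All are from RefSeq on build GRCm38.p6, which is not the mm9 build of the deposited table, and run 5′ to 3′ on the strand of the gene. Capitals mark AGATAA (the GATA factor word) and TGATTNAT (a word of Hox with Pbx) in Ms4a2, GAGGAA (PU.1 and other Ets factors) and TTGCNNAA (C/EBP) in Ms4a3, and CAGCTG (an E box) in Tmem176a. The Ms4a2 stretch is the 250 bases before its start at chr19:11623720-11623969, the Ms4a3 stretch lies after its start at chr19:11640802-11640826, both on the minus strand, and the Tmem176a stretch is at chr6:48841413-48841442 on the plus strand.
Ms4a2: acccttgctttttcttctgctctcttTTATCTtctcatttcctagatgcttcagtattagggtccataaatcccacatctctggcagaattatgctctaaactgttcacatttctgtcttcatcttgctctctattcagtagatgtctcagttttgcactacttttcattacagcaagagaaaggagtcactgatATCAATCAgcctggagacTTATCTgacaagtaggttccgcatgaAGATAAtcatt
Ms4a3: tggacttgctGAGGAATTGCACAAa
Tmem176a: ggccctcagtccCAGCTGcctgccaggaag

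The Ms4a2 window held 3 matches to AGATAA on either strand, at positions -224, -37 and -11, where -1 is the base just before the start and positions name the leftmost base of a match. At least 1 match stood in 11.2% of all 32851 windows of 300 bases, and at least 3 stood in 0.107% of them. It also held TGATTNAT at -55, a word found in 3.22% of windows. The Ms4a3 window held GAGGAA at 36 and TTGCNNAA at 42, which lie end to end after the start, and these words stood in 28.3% and 10.8% of windows. Between the starts of Tmem176a and Tmem176b lay a single CAGCTG, a word present in 16.3% of windows. Of the 9 members 8 had a window, with 12 windows in all, and Ms4a1 had none. Among these, AGATAA was found in Ms4a2 alone and TTGCNNAA in Ms4a3 alone, while GAGGAA stood also in windows of Tmem176a, Tmem176b, Ms4a4c and Ms4a7. Its matches in Tmem176a and in Tmem176b are the same places in the genome, met from either gene. TGATTNAT also stood in a window of Ms4a7, at -81, where it overlaps a TGANTCA (AP-1) word that is present in 7.81% of windows. TGACAG (Meis, 19.2% of windows) stood in 2 windows of Tmem176b, at -6 and -155 of different starts, which is 1 place in the genome, and TGTGGT (Runx, 16.8%) in the one of Ms4a4c. These are matches of letters, and the data hold no measure of binding.

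Levels within the family spanned from 0 to 821 FPKM, and 4 of the 9 members had at least 1 FPKM in either condition. In order of their 4OHT level these were Ms4a3, Tmem176b, Tmem176a and Ms4a2, and in EtOH the order was Ms4a3, Ms4a2, Tmem176b and Tmem176a. The step of Ms4a2 past the Tmem176 pair is the one change in that order, and without replicate values no neighbours in it can be compared with their spread. The authors tested these 4, of which 1 was called higher, 2 lower and 1 was not called. Nothing is read from this count beside the 22.5% called among all tested genes, since the members were chosen on it. The other 5 members lay at or under 0.335 FPKM and were not tested.

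**Figure D1:**
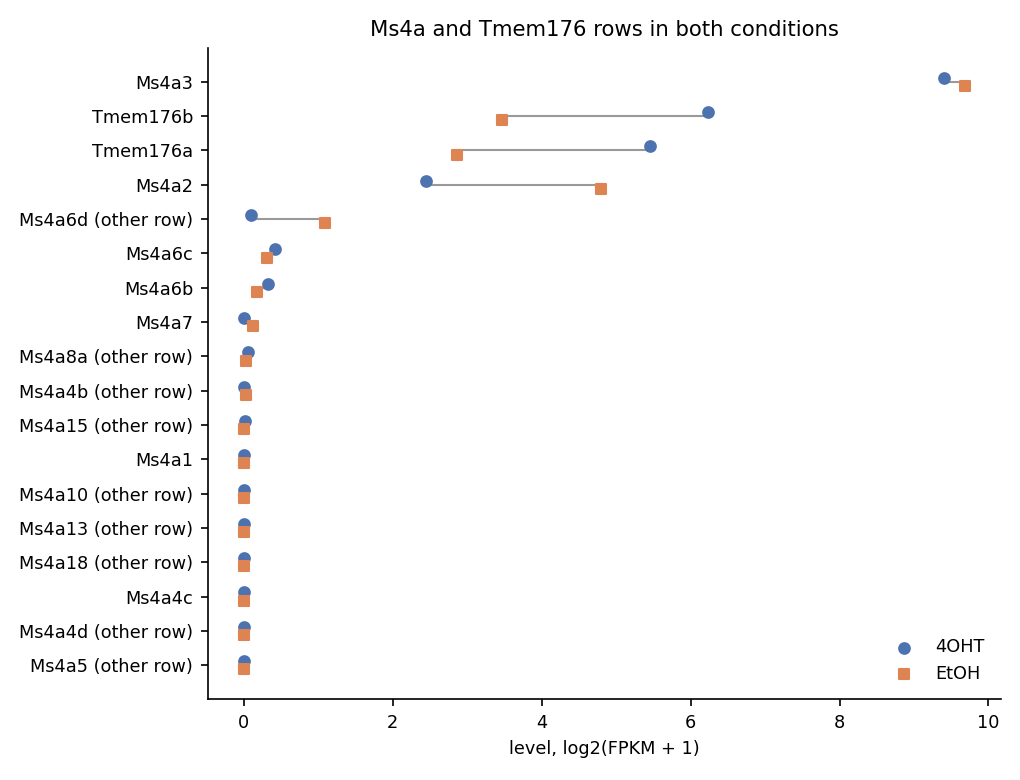
Levels of all Ms4a and Tmem176 genes of the table as log2(FPKM + 1) on the x axis, with 4OHT as circles and EtOH as squares joined by a line, 1 value per condition with no replicate error; genes marked other row were not in the chosen list. Ms4a3 lies far to the right at 674 and 821 FPKM, Tmem176a and Tmem176b move left in EtOH, Ms4a2 moves right, and most genes sit at or near 0.

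Ms4a2, at chr19:11691683-11698133 on mm9, was listed at 4.46 FPKM in 4OHT and 26.7 FPKM in EtOH. It was thus low in transformed cells and several times higher after withdrawal, a ratio of 5.99 and a log2 change of 2.34. The authors' deposited table lists its q-value as 0. By level, Ms4a2 stood at rank 8483 of the table in 4OHT and at rank 3092 in EtOH. The symbol has been used for CD20 in older naming, and CD20's current symbol for this gene. The place of the row in the gene order, between Ms4a6d and Ms4a3 on chromosome 19, is that of the IgE receptor gene in RefSeq. Its extent differs, at 6451 bases in the deposited locus and 8274 in RefSeq. In RNA from a whole culture, more cells of one type and more RNA per cell cannot be told apart.

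The partner chains of Ms4a2 differed widely in level. Fcer1g, the gamma chain shared with other Fc receptors, was listed at 468 and 513 FPKM, and was not called (q-value 0.602, the authors' deposited table). Fcer1a, the IgE-binding alpha chain, rose from 0.677 to 2.07 FPKM (0.87), with q-value 0.00782 in the authors' deposited table. Per length of transcript, the level of Ms4a2 was 6.59 times that of Fcer1a in 4OHT and 12.9 times in EtOH, while Fcer1g stood at 105 and 19.2 times the level of Ms4a2. By RNA level, the gene of the alpha chain was therefore the lowest of the receptor chain genes in both conditions, and protein was not measured.

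Genes of the IgE receptor and its nearest signalling partners had smaller log2 changes than Ms4a2. Because Ms4a2 was chosen with its values known, this is a description only. In a list of 17 receptor and proximal signalling genes, all with 1 FPKM or more, 6 rose, 1 fell and 10 were not called. The median log2 change was 0.33, against -0.06 over the 11022 genes of that level, of which 12.0% rose and 10.6% fell. After Plcg1, a phospholipase C that rose from 3.54 to 7.70 FPKM (0.94), and Fcer1a, the largest rise was in Syk, the kinase that binds the gamma chain, from 25.6 to 44.1 FPKM (0.76). Fyn, a Src family kinase, fell from 8.92 to 4.72 FPKM (-0.79). Lyn, the Src family kinase associated with the beta chain, was listed at 20.2 and 26.7 FPKM and was not called (q-value 0.0564, the authors' deposited table). None of the 17 genes differed 2-fold on the log2(FPKM + 1) scale. Of all genes with 1 FPKM or more, 5.11% were that much higher and 2.38% that much lower. As plain ratios, Fcer1a was 3.05 and Plcg1 2.18 times as high in EtOH. The locus of Plcg1 overlaps Zhx3.

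Markers of mast cells and basophils were higher together with Ms4a2. Of 17 such genes 14 had at least 1 FPKM, and 12 of these rose, 0 fell and 2, Kit and Mitf, were not called. The median log2 change was 1.62. Among all genes of that level 12.0% rose and 10.6% fell. The summed level of the list, which also holds Fcer1a, was 1427 FPKM in 4OHT and 5483 FPKM in EtOH. Tpsb2, a mast cell tryptase, rose from 10.2 to 242 FPKM (4.44), the cytokine gene Il4 from 1.34 to 33.6 FPKM (3.88), Mcpt8, a basophil protease, from 183 to 1685 FPKM (3.20), and Cd200r3, a receptor of basophils and mast cells, from 18.9 to 158 FPKM (3.00). Gata1, which encodes a factor of this lineage, rose from 1.599 to 10.6 FPKM (2.15), and its relative Gata2 from 71.1 to 122 FPKM (0.77). The mast cell protease gene Mcpt4 was listed at 0 and 0.0256 FPKM, and Itga2 at 0 and 0.0252 FPKM. The part of these cell types in the rise of Ms4a2 was not tested.

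Ms4a3, at chr19:11703987-11715324 on mm9 and 5853 bases from Ms4a2, was listed at 674 FPKM in 4OHT and 821 FPKM in EtOH. Its level was among the highest of the table in both conditions, at ranks 131 and 130, and made up 0.124% and 0.139% of the FPKM sum. The ratio was 1.22 and the log2 change 0.28, and it was not called (q-value 0.185, the authors' deposited table). A q-value above the threshold does not show that the levels are equal. Ms4a2 and Ms4a3 are thus neighbours of unlike level, with Ms4a3 at 151 times the level of Ms4a2 in 4OHT and 30.7 times in EtOH. No 50-base word of Ms4a3 transcripts occurs in transcripts of other genes of GENCODE M21, and 2.10% of those of Ms4a2 do.

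Granulocyte-monocyte progenitor genes, the company in which Ms4a3 is usually found, were mostly called. All 14 listed genes had at least 1 FPKM, of which 8 rose, 2 fell and 4 were not called, with a median log2 change of 0.78. Shares over all genes of that level were 12.0% for a rise and 10.6% for a fall. Mpo, myeloperoxidase, which shares 9.46% of its 50-base words with Gm11505 and other genes, rose from 186 to 918 FPKM (2.29), Elane, neutrophil elastase, from 736 to 3047 FPKM (2.05), and Nkg7, a granule membrane protein gene, from 14.2 to 75.9 FPKM (2.34). Fcnb, the ficolin B gene, had the largest rise, from 0.0861 to 34.8 FPKM (5.04). Like Ms4a3, Srgn (0.35), Cebpa (0.21), Plac8 (-0.07) and Igfbp4 (-0.24) were not called, and the lowest level among these was 99.7 FPKM. Other genes of such levels were called, such as Elane and Prtn3, which rose from 969 to 2068 FPKM (1.09). Ctsg, cathepsin G, fell from 2722 to 1291 FPKM (-1.08), and Ctsc, the protease that activates granule enzymes, from 98.2 to 75.4 FPKM (-0.38).

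Tmem176a and Tmem176b lie head to head on chromosome 6 and were both lower in EtOH. Tmem176b, at chr6:48783811-48791373 on mm9, was listed at 74.2 FPKM in 4OHT and 10.1 FPKM in EtOH, 7.35-fold lower, with a log2 change of -2.76. Tmem176a, at chr6:48791482-48795363, was listed at 42.8 and 6.29 FPKM, 6.81-fold lower, with a log2 change of -2.59. The authors' deposited table lists both q-values as 0. The level of Tmem176b was 1.73 times that of its partner in 4OHT and 1.61 times in EtOH, so the factors of the falls were close. In rank, Tmem176b went from 1142 to 6197 and Tmem176a from 1968 to 7612.

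The pair share their upstream region. The deposited loci leave 108 bases between the end of Tmem176b, on the minus strand, and the start of Tmem176a, on the plus strand. The RefSeq starts nearest to each other on GRCm38.p6 are also 108 bases apart, and the CAGCTG printed above lies between them, at -58 of Tmem176a and -56 of Tmem176b. RefSeq gives Tmem176b an extent of 12138 bases, against 7563 in the deposited locus, so longer forms may reach across Tmem176a on the other strand. No Tmem176b start used for the promoter windows lies beyond a start of Tmem176a. The counting is not stated to use strand, so reads of such a form could not be told from those of Tmem176a. Each gene shared 13 words of 50 bases with transcripts of other genes, mainly with its partner, 0.333% of the words of Tmem176a and 0.476% of those of Tmem176b.

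**Figure D2:**
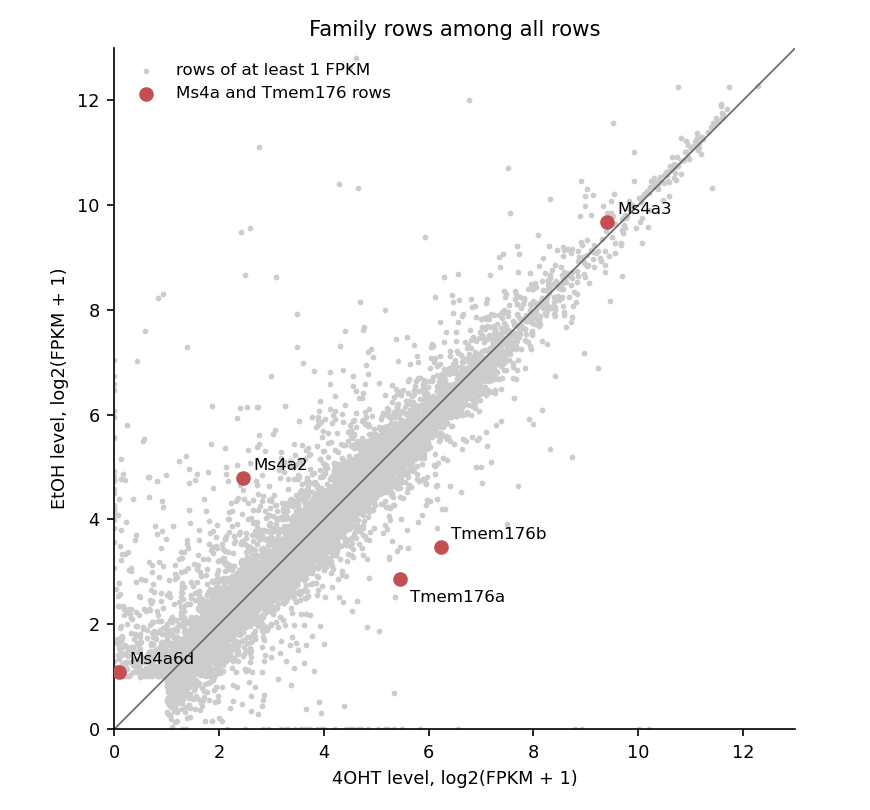
Level in EtOH against level in 4OHT, both as log2(FPKM + 1), in grey for the 11022 genes that reached 1 FPKM in a condition and the Ms4a and Tmem176 genes of that level in red, with the line of equal levels. Ms4a3 lies next to the line among the most abundant genes, Ms4a2 and Ms4a6d lie above it, and Tmem176a and Tmem176b lie below it.

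Dendritic cell genes, with which the Tmem176 pair is usually found, were mostly low. Of 17 such genes 5 had at least 1 FPKM, and 2 of these fell, 1 rose and 2 were not called. Over all genes of that level 10.6% fell and 12.0% rose. The 5 had a median log2 change of -0.29. Without the filter on low values the median was 0.02 with 2 called in each direction, the fourth being the integrin gene Itgax, named after its values were seen, which rose from 0.105 to 0.522 FPKM (0.46). Flt3, a receptor kinase of dendritic cell and other progenitors, fell from 14.5 to 0.239 FPKM (-3.64), and Irf8, a factor of monocyte and dendritic cell development, from 4.09 to 0.751 FPKM (-1.54). Cd74, the invariant chain of class II antigen presentation, rose from 0.690 to 5.12 FPKM (1.86). The defining genes Xcr1, Clec9a, Siglech and Zbtb46 lay at or under 0.0623 FPKM, and Cd209a was listed at 0 in both conditions. H2-Ab1, a class II gene at 21.7 and 23.2 FPKM that was not called, made up much of the summed level of the list. That sum was 43.1 FPKM in 4OHT and 32.6 FPKM in EtOH. The part of dendritic cells in the level of the pair was not tested.

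Some genes of the NLRP3 inflammasome list rose. Of 11 genes of the NLRP3 inflammasome and of related cytokine pathways 4 had at least 1 FPKM. Of the 4, 3 rose, 0 fell and 1 was not called, beside 12.0% called higher among all genes of that level. Il1b, the cytokine gene, rose from 1.70 to 30.002 FPKM (3.52), but its locus overlaps Gm14047. Gsdmd, the pore-forming gasdermin D gene, rose from 24.5 to 35.7 FPKM (0.53), and Pycard, the adaptor gene, which shares 11.7% of its words, from 24.9 to 33.4 FPKM (0.41). Of these, Il1b alone had a ratio of at least 1.5. Casp1, which encodes the protease of the complex, was listed at 15.3 and 14.4 FPKM. Nlrp3 itself, named after its values were seen, rose from 0.0246 to 0.703 FPKM, below the level filter. The part of Tmem176b in these rises was not tested.

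The remaining members, known mainly from B cells, other lymphocytes, monocytes and macrophages, were listed at 0 or at under 1 FPKM. Ms4a1 and Ms4a4c were listed at 0 FPKM in both conditions. A listed 0 may be a failed estimate and is not read here as absence. Of 79 ribosomal protein genes, only Rpl10l and Rpl39l, copies known mainly from testis, stood at 0 in both. These genes thus give no example of a failed estimate. Ms4a7, a macrophage gene, was listed at 0 in 4OHT and 0.0906 FPKM in EtOH. Ms4a6b was listed at 0.246 and 0.132 FPKM, and Ms4a6c at 0.335 and 0.239 FPKM, neither of them tested by the authors. Ms4a6c shared 51.4% of its words with transcripts of other genes and Ms4a4c 8.19%, which leaves their own levels uncertain. The row of Ms4a1 is given a joint locus with Ms4a5 and 4930526L06Rik, at chr19:11271307-11374374 on mm9, so the position does not describe Ms4a1 alone.

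B cell markers were mostly listed at under 1 FPKM as well. Of 19 such genes 2 had at least 1 FPKM, Cd72 at 2.92 and 2.09 FPKM and Cd79b at 1.10 and 1.63 FPKM, and neither was called. In all, 5 of the 19 were listed at 0 in both conditions, to which the same limit applies. The defining genes Pax5 and Ebf1 were listed at 0 in both conditions, and Cd79a at 0.0338 and 0.0729 FPKM. The summed level of the list was 4.72 FPKM in 4OHT and 5.01 FPKM in EtOH.

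Monocyte and macrophage markers were higher in EtOH while Ms4a6b, Ms4a6c and Ms4a7 stayed under 1 FPKM. Of 22 such genes 12 had at least 1 FPKM, of which 8 rose, 1 fell and 3 were not called. Over all genes of that level 12.0% rose and 10.6% fell. The median log2 change of the 12 was 1.11. That median was 0.28 over all 22 genes and 0.43 with a pseudocount of 5. Cd14, a receptor for bacterial lipopolysaccharide, rose from 5.29 to 17.2 FPKM (1.53) and the mannose receptor gene Mrc1 from 0.0839 to 1.92 FPKM (1.43). The integrin subunit gene Itgam and the lysozyme gene Lyz2, of whose words 66.3% and 15.4% were shared, rose from 16.2 to 112 FPKM (2.71) and, for Lyz2, from 40.5 to 174 FPKM (2.08). Csf1r, the receptor of macrophage colony-stimulating factor, rose from 0.347 to 2.10 FPKM (1.20). Emr1, the F4/80 antigen gene, fell from 202 to 102 FPKM (-0.98). Cd163 and Siglec1, markers of mature macrophages, lay at or under 0.0524 FPKM. The summed level of the list, most of it Ly6c2 at 3104 and 3463 FPKM, was 3636 FPKM in 4OHT and 4363 FPKM in EtOH.

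The table also held 9 genes of the family outside the chosen list, all of them Ms4a genes. Ms4a6d, a monocyte and macrophage gene at chr19:11661096-11679294 on mm9, rose from 0.0664 to 1.12 FPKM, a ratio of 16.9 and a log2 change of 0.99, with q-value 0.00121 in the authors' deposited table. The part of monocytes and macrophages, whose markers are given above, in this rise was not tested. The gene ends 12388 bases before Ms4a2 and shares 2.54% of its words with other genes. In Ms4a6d and in Ms4a2 the level was higher in EtOH, while Ms4a6b and Ms4a6c were listed lower and were not tested. The other 8 lay at or under 0.0432 FPKM, and Ms4a5, Ms4a10, Ms4a13, Ms4a18 and Ms4a4d were at 0 in both conditions. Among the 16 Ms4a genes, which span 679 kb, those of at least 1 FPKM were thus the 3 at one end of the cluster, Ms4a6d, Ms4a2 and Ms4a3. Genes now named Ms4a20 and Ms4a19 stand in the table as 1700017D01Rik, at 0 and 0.0200 FPKM, and 1700025F22Rik, at 0 in both.

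Genes beside the Ms4a cluster changed in both directions. Within 300 kb of its outer ends, and inside it, stood 25 genes outside the family, of which 10 had at least 1 FPKM. Of these 1 rose, 3 fell and 6 were not called. Among all genes of at least 1 FPKM, 12.0% were called higher and 10.6% lower. Stx3, a syntaxin gene, rose from 9.00 to 26.2 FPKM (1.45). Pga5, a pepsinogen gene, fell from 15.1 to 4.72 FPKM (-1.50), Tmem109 from 6.28 to 2.26 FPKM (-1.16), and Mrpl16, a mitochondrial ribosomal protein gene, from 25.5 to 17.8 FPKM (-0.49). Slc15a3, named after its values were seen, also rose, from 0.177 to 0.781 FPKM. Next to Ms4a3 on its far side from Ms4a2 lay Plac1l, at 1.33 and 1.28 FPKM, and Oosp1, at 13.3 and 14.97 FPKM, neither of them called.

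Around the Tmem176 pair the called neighbours were lower in EtOH. Within 300 kb stood 21 genes, of which 11 had at least 1 FPKM, and 6 of these fell, 0 rose and 5 were not called, with a median log2 change of -0.58 against -0.06 over all genes of that level. The share called lower among all genes of at least 1 FPKM was 10.6%. Of the 6, 2 were at least 2-fold lower on the log2(FPKM + 1) scale, and 2 lay within 100 kb. Of the Gimap genes, which encode GTPases of lymphocytes and other blood cells, Gimap1 fell from 21.9 to 9.06 FPKM (-1.18), Gimap8 from 1.85 to 0.492 FPKM (-0.93), Gimap5 from 3.06 to 1.36 FPKM (-0.78) and Gimap6 from 7.37 to 4.61 FPKM (-0.58). Gimap9, the most abundant of them, was listed at 25.0 and 22.1 FPKM and was not called. Gm5111 fell from 8.68 to 1.47 FPKM (-1.97) and Repin1, a zinc finger gene, from 15.6 to 8.12 FPKM (-0.86). The called neighbours all lay on the side of Tmem176b, and neither of the 2 genes of that level on the side of Tmem176a, Gpnmb and 2410003K15Rik, was called. The changes of Tmem176a and Tmem176b were larger than that of any of these neighbours. Nothing is read from this, since the pair was chosen with its values known.

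**Figure D3:**
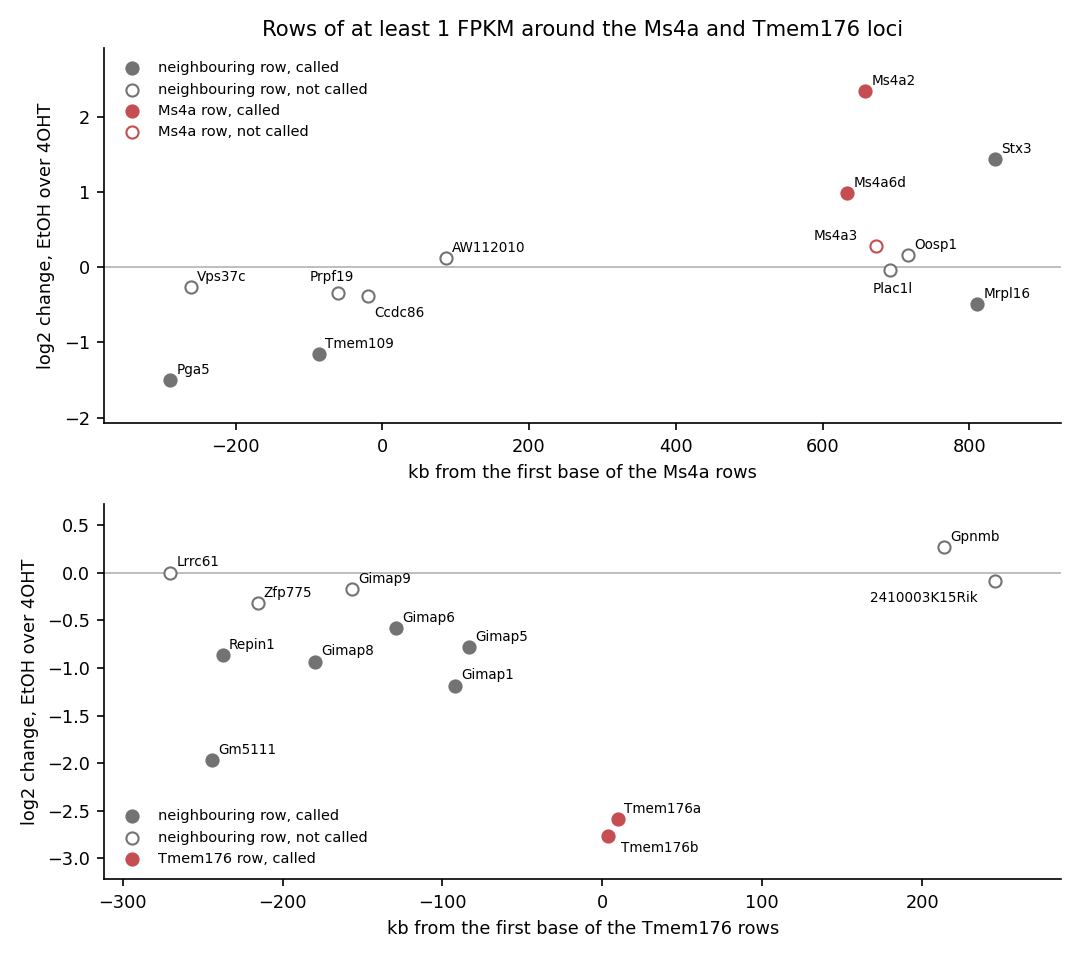
Log2 change of genes of at least 1 FPKM by position, in kb from the first base of the Ms4a genes (top) and of the Tmem176 genes (bottom), with family genes in red, neighbours in grey and filled points for genes called in the authors' table. In the top panel called neighbours lie on both sides of 0, and in the bottom panel the 6 called neighbours lie below 0 and to the left of the pair.

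The genes nearest in pattern were taken as the 3 with the smallest distance in log2(FPKM + 1) over the 2 conditions. For Ms4a2 these were Matk, at 4.82 and 27.9 FPKM (distance 0.11), Sqrdl, at 4.29 and 24.3 FPKM (distance 0.14), and Arl4c, at 4.46 and 22.7 FPKM (distance 0.22). For Tmem176b they were Nrgn, at 70.9 and 13.2 FPKM (distance 0.37), Prdx4, at 47.9 and 9.98 FPKM (distance 0.62), and Mir7-1, at 54.4 and 14.4 FPKM (distance 0.65). The row of Mir7-1 overlaps Hnrnpk and Rmi1, so its value may hold their reads. The match was closer for Ms4a2 than for Tmem176b by this measure, and Mir7-1 was not called (q-value 0.968, the authors' deposited table).

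**Figure D4:**
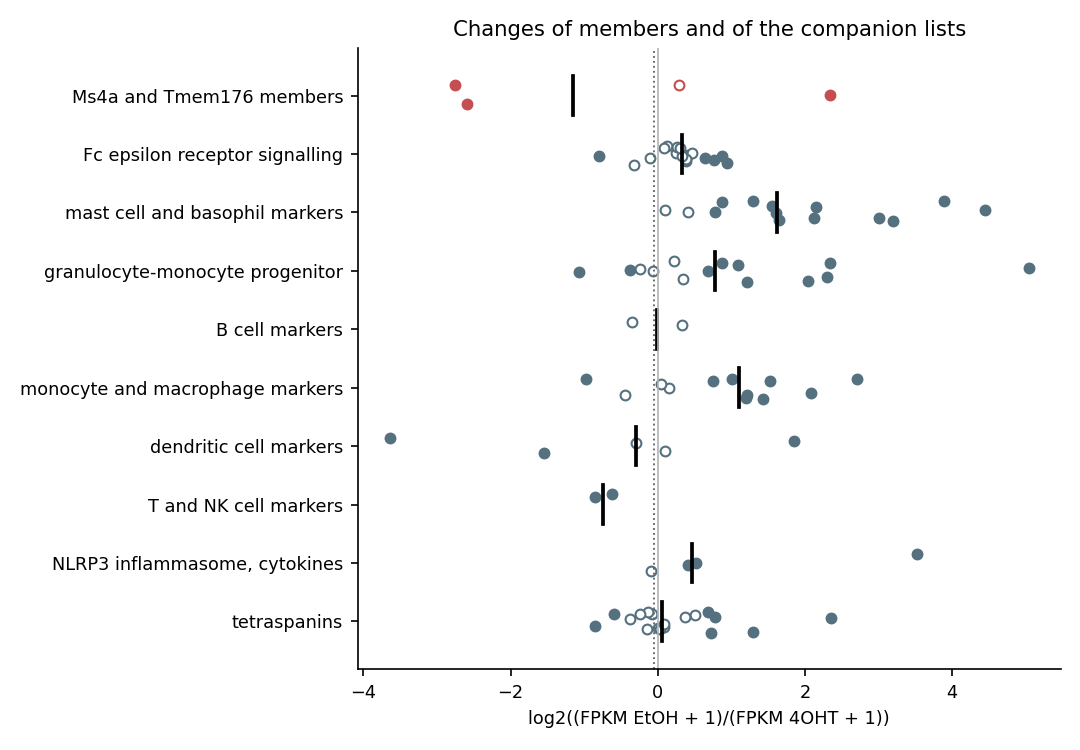
Log2 change of each gene of at least 1 FPKM for the members (top, red) and the companion lists, filled where called in the authors' table, with the list median as a black bar and the median of all genes of that level, -0.06, as a dotted line. The members lie on both sides of 0, the mast cell and basophil genes all lie to the right of 0, and Flt3 lies farthest to the left among the dendritic cell genes at -3.64.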

How the data were processed

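The authors deposited 1 table of 23235 genes with an FPKM value for 4OHT and for EtOH, each over 2 replicates, and the p-value and q-value of their comparison, per the file headers. Build mm9 and the tools Cuffdiff 2.0.2, Bowtie2 2.0.0.7 and CASAVA 1.8.2 are named in the submitters' processing notes. Not given in the sources used here are the annotation, strand setting, library scaling, read depth and use of the replicates in the test. The replicates are called biological, but no source says whether they were separate cultures or animals.

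With 1 value per condition no test was run. Log2 changes were computed with a pseudocount of 1, list counts and medians over genes that reached 1 FPKM in a condition, and calls taken at the authors' q of at most 0.05. Members and 9 companion lists were chosen with earlier results of these data known. Named were all members, family genes of at least 1 FPKM or called, called neighbours and up to 4 called genes of each list with the largest change. So were Cd79a, Pax5, Fcer1a, Fcer1g, Csf1r, Mpo and Elane, and the 3 genes nearest in pattern to Ms4a2 and Tmem176b. All others were named after their values were seen. Starts were counted from 1. Promoter words were searched in RefSeq windows on GRCm38.p6, and shared words of 50 bases in GENCODE M21 transcripts. The steps were tested on simulated data with Python 3.11.15. Hydrophobic stretches and protein identity, planned at first, were not analysed here.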

Additional observations from a re-analysis of the deposited data

How the results depend on the processing

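The 3 calls among the members were 1 higher and 2 lower. They were made also at a q of at most 0.01, with a ratio of at least 1.5 added, and at 2-fold without q. The deposited q-values of these 3 are 0 and their levels differed by 5.99, 6.81 and 7.35 times, so these settings could not change the calls. Nothing is read from this, since the members were chosen on this contrast. Over both pseudocounts (0.1 and 5) and both scalings of EtOH, the log2 change ranged from 1.74 to 2.55 for Ms4a2, 0.16 to 0.35 for Ms4a3, -2.75 to -2.08 for Tmem176a and -2.87 to -2.39 for Tmem176b. Equal FPKM sums lowered changes by up to 0.12 and moved the median of all genes from -0.06 to -0.16, and a median ratio of 0 raised changes by up to 0.07. At 2-fold on the log2(FPKM + 1) scale, the other Ms4a genes gave 0 calls in place of 1 (Ms4a6d), neighbours 5 in place of 10, and the companion lists 30 in place of 52. Within 100 kb the neighbours gave 3 calls, 2 of them beside Tmem176. The tetraspanin median turned to -0.06 with equal FPKM sums, and the dendritic cell median to 0.02 without the filter on low values, which also took the monocyte and macrophage median from 1.11 to 0.28. The cause was not tested. Of all recomputed values for single genes, single lists and single loci, some of them given above, 95 stayed within 1.5 times (counts) or 0.5 of their size (log2 changes and medians), and 35 moved more, B cell medians near 0 among them. Some of the 95 could not move, such as the changes of Ms4a1 and Ms4a4c, which were listed at 0 in both conditions. Lifting the filter on low values also could not alter lists whose genes all had at least 1 FPKM. The alternative for hydrophobic stretches was not run. No paired analysis was possible because each condition is 1 value over its replicates, and no replicate could be left out. FPKM without read totals gives no counting limit for the genes listed at 0.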

Other observations

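Tetraspanins, which are no relatives of Ms4a but have the same number of membrane passes, changed in both directions. Of 31 genes 18 had at least 1 FPKM, of which 5 rose, 2 fell and 11 were not called. Among all genes of that level 12.0% rose and 10.6% fell. The median log2 change of 0.05 turned to -0.06 when EtOH was scaled to equal FPKM sums. Cd9 rose from 27.7 to 145 FPKM (2.35), with 14.4% of its 50-base words shared with other genes, Tspan2 from 3.33 to 9.58 FPKM (1.29) and the leukocyte gene Cd53 from 175 to 302 FPKM (0.78). A fall from 46.1 to 25.2 FPKM (-0.85) was listed for Tspan4, with 10.9% of its words shared, mainly with the overlapping Chid1. The locus of Tspan2 overlaps 2410057H14Rik. Against them, the changes of Tmem176a and Tmem176b were larger than any fall among tetraspanins, and that of Ms4a2, at 2.34, was close in size to that of Cd9. This order is a description, since the members were chosen with their values known.

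T and NK cell markers, set beside the T cell gene Ms4a4b at 0 and 0.0237 FPKM, were mostly listed at under 1 FPKM. Of 16 genes 2 had at least 1 FPKM and both fell, beside 10.6% called lower among all genes of that level. The kinase gene Lck fell from 3.55 to 1.51 FPKM (-0.86). Tcf7, a factor of T cell and stem cell programmes, fell from 1.67 to 0.732 FPKM (-0.63). Cd3e, Cd3g, Cd4 and Cd2 were among the 6 listed at 0 in both conditions, which may be failed estimates.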
